A study of Homo sapiens with 18 samples.

Results

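The change examined here is the one seen when decitabine was added to CHD4-depleted SW48 cells, a human colon adenocarcinoma line. It rests on 6 of the 18 RNA-seq libraries of the series, 3 from siCHD4 plus decitabine and 3 from siCHD4 alone, chosen by their labels. Cells of the siCHD4 group received siRNA against CHD4 on days 1, 3 and 6 and were harvested on day 8. Cells of the siCHD4 plus decitabine group received 50 nM decitabine on days 1, 2 and 3 and the same siRNA on days 1 and 2, with harvest on day 5. Both groups therefore share CHD4 siRNA, medium with 10% serum and the library protocol, but the decitabine group had 1 siRNA dose fewer and was harvested earlier. The effect of decitabine and the effect of the schedule cannot be told apart in this comparison. The same change of agent and schedule was made in cells given control siRNA, with 3 libraries of control siRNA plus decitabine and 3 of control siRNA alone. A further 3 libraries came from siCHD4 plus siDNMT1, in which DNMT1 was silenced by siRNA on days 1, 3 and 5, CHD4 siRNA followed on days 7 and 8, and harvest was on day 11. All libraries come from the same cell line, and the labels do not say that replicates were separate cultures, so p-values measure the spread between libraries, which may be technical.

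Decitabine is a nucleoside drug. Dividing cells incorporate it in place of deoxycytidine, DNA methyltransferases become bound to it, and methylation of CpG sites is lost over the following divisions. DNMT1 is the enzyme that copies methylation onto newly made DNA strands. CHD4 is the ATP-driven remodelling subunit of the NuRD complex, which also holds histone deacetylases and methyl-CpG-binding proteins and keeps many genes silent. Genes whose promoters are densely methylated in colon cancer cells, among them the cancer-testis genes that are normally expressed in germ cells, are known to be expressed again after DNA methylation is lost.

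Levels are given in FPKM, fragment counts scaled by gene length and by library size, as deposited. Changes are differences of log2(FPKM + 1), siCHD4 plus decitabine minus siCHD4 unless stated, a scale that understates the change of low genes. A gene was called higher or lower at a Benjamini-Hochberg adjusted p below 0.05 in limma, fitted over 12809 genes that reached 1 FPKM in at least 3 of the 18 libraries.

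The libraries differed in ways that bear on the comparison. The FPKM that 1 fragment was worth, a larger value meaning fewer fragments, was 0.599 to 0.717 times that of control siRNA replicate 0 in siCHD4 plus decitabine, 0.642 to 1.01 times in siCHD4, and 4.11 times in control siRNA plus decitabine replicate 0, the library with the fewest fragments. Between 7353 and 7666 genes were listed at 0 in the siCHD4 libraries and between 5939 and 6292 in the siCHD4 plus decitabine libraries. On the first principal component siCHD4 replicate 2 lay at -0.46, away from the other siCHD4 libraries at -26.43 and -27.15 and from the decitabine libraries at 27.10 to 35.25. The median level of 159 small structural RNA genes was 504, 550 and 153 FPKM in siCHD4 replicates 0, 1 and 2, against 110, 105 and 148 FPKM in siCHD4 plus decitabine. It was 523 FPKM in control siRNA replicate 2 and 576 FPKM in control siRNA plus decitabine replicate 0, and no more than 218 FPKM in the other control siRNA libraries with and without decitabine. Of 14 colon epithelial markers 11 were tested and none was called in limma, but 4 were higher without siCHD4 replicate 2, 1 without siCHD4 replicate 1 and 2 without control siRNA plus decitabine replicate 0. Over all tested genes, 11.9% were higher without siCHD4 replicate 2. The libraries under 300 FPKM for small structural RNA, called those of low small RNA level, leave only replicate 2 of the siCHD4 group. With them alone the median change of the 11 markers was -0.24. The summed level of the 14 colon epithelial markers was 1213 to 1378 FPKM with siCHD4 and 1459 to 1516 FPKM with decitabine added. For neural and glial markers it was 19.6 to 21.5 and 16.8 to 18.9 FPKM. Sums were at most 7.70 FPKM for fibroblast, 6.24 FPKM for blood-cell and 1.13 FPKM for endothelial markers in any of these 6 libraries.

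The silenced gene was read before the others. CHD4 stood at 39.0, 31.8 and 23.2 FPKM in the siCHD4 libraries and at 55.6, 56.5 and 52.6 FPKM with decitabine added, so the groups did not overlap. The mean was 31.3 ± 7.87 FPKM (SD, n = 3) against 54.9 ± 2.06 FPKM (SD, n = 3), with an exact two-sided permutation p of 0.1, the smallest that 3 against 3 libraries allow, and a log2 change of 0.82 (SE 0.14, limma adjusted p = 0.000788). Against its own control, CHD4 was at 49.9% of control siRNA (62.8 ± 4.78 FPKM, SD, n = 3) on the long schedule and at 72.1% of control siRNA plus decitabine (76.2 ± 8.17 FPKM, SD, n = 3) on the decitabine schedule. The difference between the change in CHD4 siRNA cells and that in control siRNA cells, 0.55, did not pass the test (limma adjusted p = 0.209). The part of the higher CHD4 level in the results that follow was not tested. DNMT1 was at 42.5 ± 7.18 FPKM (SD, n = 3) and 50.1 ± 4.75 FPKM (SD, n = 3), overlapping between the groups (log2 change 0.24, limma adjusted p = 0.179, or 0.36 with adjusted p = 0.045 without siCHD4 replicate 0), and at 12.1 ± 0.968 FPKM (SD, n = 3) with siDNMT1.

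Across all tested genes, 981 (7.66%) were higher and 805 (6.28%) lower with siCHD4 plus decitabine than with siCHD4 alone. Large changes were mostly upward: 306 genes rose by at least 1 on the log2 scale and 71 fell by as much. Without siCHD4 replicate 2 the counts were 1528 (11.9%) and 1868 (14.6%), and 908 of the 981 and 732 of the 805 genes were among them. In each of the 6 fits that left out a library of the comparison, 603 of the higher and 293 of the lower genes were called. With control siRNA in place of siCHD4, decitabine and its schedule gave 1230 higher (9.6%) and 1105 lower genes (8.63%), in libraries that the first comparison does not use. Of the genes higher with siCHD4, 602 were also higher with control siRNA, which is 61.4% of the first list and 48.9% of the second. Of those lower, 280 were lower in both, 34.8% and 25.3% of the respective lists. Only 5 genes were higher with siCHD4 and lower with control siRNA, and 11 the reverse. The plot of the changes in both backgrounds shows these genes and those whose change differed between them.

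**Figure D1:**
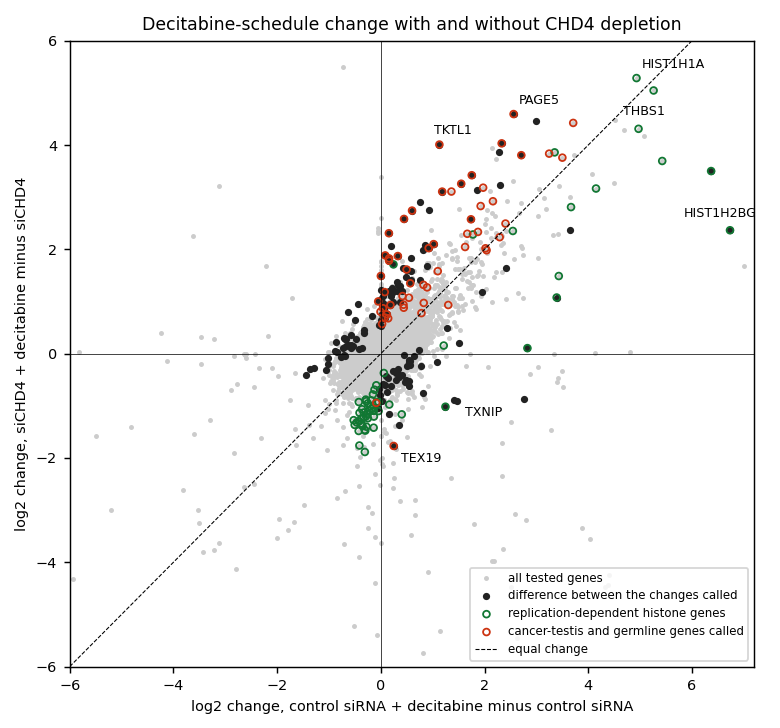
Each point is a tested gene, with its log2 change from control siRNA to control siRNA plus decitabine on the x axis and from siCHD4 to siCHD4 plus decitabine on the y axis. Black points are the 148 genes whose changes differed between the backgrounds (limma adjusted p below 0.05), red circles cancer-testis and germline genes called in CHD4-depleted cells, and green circles replication-dependent histone genes. Red circles lie mostly above the line of equal change, while TEX19 and several histone genes lie below it. The red circles were picked by their change on the y axis, which favours that side.

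Genes that were nearly silent after CHD4 depletion made up much of the upward change. Among all 19824 genes above 0 in any library, with no filter on level, 7069 had a siCHD4 mean under 0.5 FPKM and 841 of them were higher with decitabine, while 6650 had a mean under 0.5 FPKM with decitabine and 35 of those were lower. These genes were picked by their siCHD4 level, so the counts describe the direction and are no separate test. The siCHD4 plus decitabine libraries list fewer genes at 0. Their fragment worth was 0.599 to 0.717 times, against 0.642, 0.669 and 1.01 times in siCHD4 replicates 0, 1 and 2. The part of depth in these counts was not tested. Within the filter, 343 such genes were higher, with means of 0.268 to 45.8 FPKM and a median of 1.35 FPKM after decitabine, and 77 of them were listed at 0 in all 3 siCHD4 libraries.

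Cancer-testis and germline genes were the clearest group. Of 125 on the list, 124 are in the table and 25 of these were listed at 0 in all 6 libraries. With no filter on level, 63 were higher and 1 lower, against 7.29% and 4.0% of all genes. Of the 63 that passed the filter, a step that favours genes high in any group, 53 were higher and 2 lower, with a median change of 1.61 against 0.00021 over all tested genes. The 53 that rose had a median level of 0.0192 FPKM with siCHD4 and 3.28 FPKM with decitabine added, ranging from 0.629 to 63.1 FPKM. Leaving out any library of the comparison gave 52 to 54 higher members. In the libraries of low small RNA level, with 1 siCHD4 library, the median change of the 63 was 1.61. In RNA from whole cultures, a few cells with much of a transcript and many cells with little cannot be told apart. Several of these families, such as MAGEA, PAGE, SSX and VCX, hold near-identical copies on the X chromosome, so the split of fragments between copies is uncertain.

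**Figure D2:**
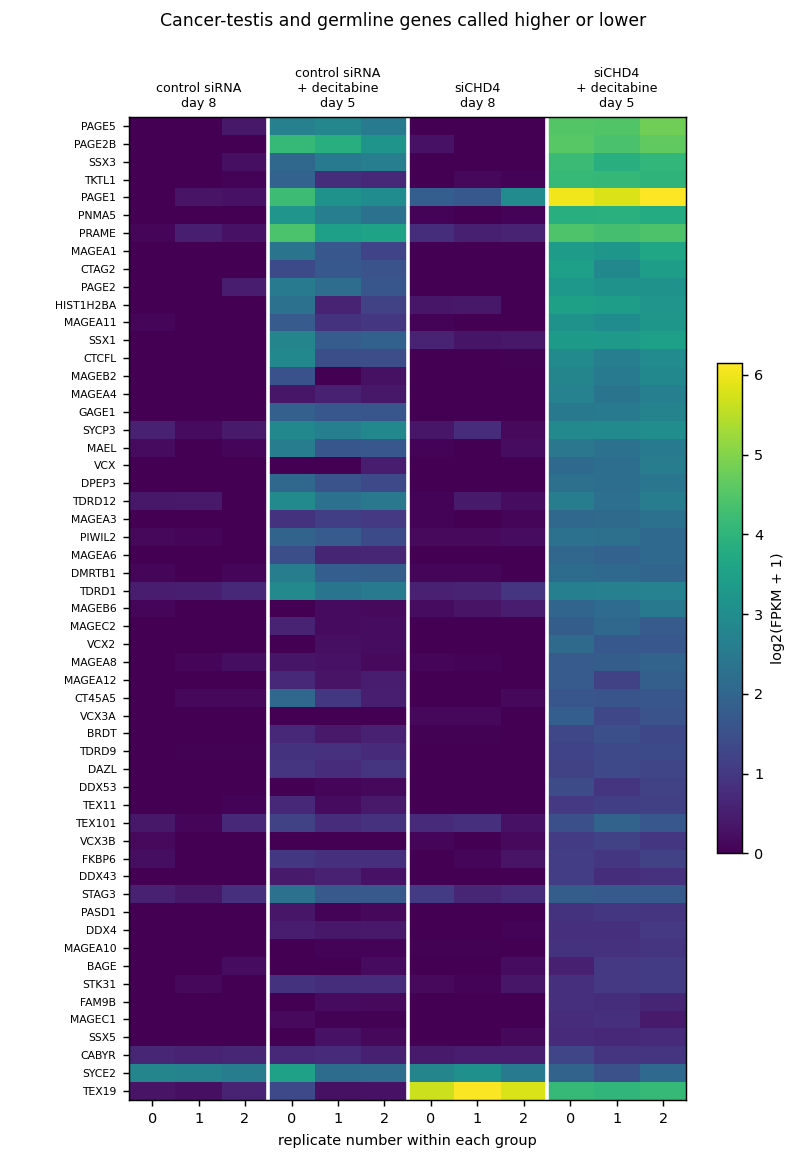
Rows are the 55 called cancer-testis and germline genes ordered by their log2 change, columns the 12 libraries of 4 groups with replicate numbers below, and colour the level as log2(FPKM + 1). Most genes are dark in control siRNA and siCHD4, intermediate in control siRNA plus decitabine and brightest in siCHD4 plus decitabine, while TEX19 in the bottom row is brightest with siCHD4 alone. The rows were picked by the change from siCHD4 to siCHD4 plus decitabine.

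The promoters of 5 genes that rose from low levels are printed. Decitabine leads to loss of methylation at CpG sites, and these promoters differ in how many CpG sites they hold. Each is the window of 300 bases around the gene's start as the RefSeq table gives it, 5′ to 3′ on the gene's strand, in lower case with each CpG in capitals. They are RefSeq sequences from GRCh38.p14, found in GRCh37 at chrX:55246529-55246828 (plus strand) for PAGE5, chrX:153523898-153524197 (plus) for TKTL1, chrX:151080696-151080995 (plus) for MAGEA4, chrX:152162611-152162910 (minus) for PNMA5 and chr15:39873030-39873329 (plus) for THBS1.
PAGE5: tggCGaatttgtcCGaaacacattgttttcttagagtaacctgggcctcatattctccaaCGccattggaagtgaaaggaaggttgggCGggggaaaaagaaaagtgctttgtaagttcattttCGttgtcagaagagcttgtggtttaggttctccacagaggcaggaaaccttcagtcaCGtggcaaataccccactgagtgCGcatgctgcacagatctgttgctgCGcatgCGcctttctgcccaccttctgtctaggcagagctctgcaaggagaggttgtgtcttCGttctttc
TKTL1: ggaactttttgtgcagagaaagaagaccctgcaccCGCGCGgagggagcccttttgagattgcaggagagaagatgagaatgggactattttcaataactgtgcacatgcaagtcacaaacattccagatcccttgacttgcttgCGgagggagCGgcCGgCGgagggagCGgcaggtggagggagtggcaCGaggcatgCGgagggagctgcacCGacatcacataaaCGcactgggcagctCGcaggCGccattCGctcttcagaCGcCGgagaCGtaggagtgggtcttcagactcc
MAGEA4: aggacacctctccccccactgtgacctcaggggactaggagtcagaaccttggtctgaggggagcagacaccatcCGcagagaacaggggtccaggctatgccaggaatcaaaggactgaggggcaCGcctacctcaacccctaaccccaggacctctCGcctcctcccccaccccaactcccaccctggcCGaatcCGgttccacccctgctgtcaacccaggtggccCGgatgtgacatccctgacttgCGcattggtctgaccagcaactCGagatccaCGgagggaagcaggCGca
PNMA5: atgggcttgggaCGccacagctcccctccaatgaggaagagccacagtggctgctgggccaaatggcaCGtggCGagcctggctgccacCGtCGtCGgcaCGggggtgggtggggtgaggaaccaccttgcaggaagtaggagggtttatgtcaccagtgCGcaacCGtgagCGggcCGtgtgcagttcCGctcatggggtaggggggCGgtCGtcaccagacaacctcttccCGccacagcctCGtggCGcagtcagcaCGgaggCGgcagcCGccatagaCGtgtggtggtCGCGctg
THBS1: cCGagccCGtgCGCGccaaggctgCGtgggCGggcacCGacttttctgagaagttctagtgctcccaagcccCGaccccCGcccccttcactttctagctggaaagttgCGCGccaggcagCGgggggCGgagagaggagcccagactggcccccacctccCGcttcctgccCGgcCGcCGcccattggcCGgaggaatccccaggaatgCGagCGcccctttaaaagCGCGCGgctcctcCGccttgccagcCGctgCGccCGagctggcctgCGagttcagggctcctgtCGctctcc
These 300-base windows hold 10 CpG sites in PAGE5 and MAGEA4, 18 in TKTL1, 23 in PNMA5 and 29 in THBS1. No methylation was measured in these samples.

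Among the 53 cancer-testis and germline genes that rose, 46 matched the promoter table and had a median of 13.5 CpG sites in the window. The median was 26 over the 9954 tested genes with a promoter in the table (77.7% of those tested) and 14 over all 27305 promoters. Among tested genes under 0.5 FPKM with siCHD4, it was 17 over 241 that were higher and 9 over 79 that were not. The letters CACGTG, which read the same on both strands, occurred in 11 of the 46 promoters (23.9%), in 10.6% of the promoters of tested genes, in 10.9% of those of all higher genes and in 7.43% of all promoters of that length. PAGE5 and PNMA5 hold 1 copy each, and TKTL1, MAGEA4 and THBS1 hold none. CCGGAAG on either strand occurred in 6.52% of the 46, in 19.6% of the promoters of tested genes and in 10.7% of all promoters. GCGGGAA on either strand occurred in 10.9%, 10.5% and 6.56% of the same sets. In the 241 and the 79 promoters of genes under 0.5 FPKM, CACGTG occurred in 11.2% and 3.8%. CCGGAAG occurred there in 6.64% and 3.8%, and GCGGGAA in 9.13% and 2.53%. A match describes the letters only. By gene position, 31 of the 51 risen cancer-testis and germline genes with a position were on the X chromosome. Among all tested genes 62 of 402 on X were higher (15.4%), these 31 among them, against 887 of 11984 elsewhere (7.4%).

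PAGE5, of the GAGE-related family of X-linked cancer-testis antigens, was listed at 0 in all 3 siCHD4 libraries and reached 21.7, 21.1 and 27.1 FPKM with decitabine added (log2 change 4.59, SE 0.14, limma adjusted p = 5.99e-12). Its 3 control siRNA plus decitabine libraries were at 5.37, 6.21 and 4.92 FPKM, all below those of CHD4-depleted cells. TKTL1, a transketolase-like gene, was at 0, 0.0915 and 0.0463 FPKM with siCHD4 and at 16.4, 16.1 and 15.0 FPKM with decitabine added, a log2 change of 4.01 (SE 0.22, limma adjusted p = 4.1e-09). In control siRNA cells TKTL1 reached 2.81, 0.742 and 0.646 FPKM with decitabine, so the groups with and without CHD4 siRNA did not overlap. MAGEA4, a MAGE antigen, was listed at 0 in the siCHD4 libraries and reached 5.64, 4.14 and 5.30 FPKM with decitabine added (log2 change 2.58, limma adjusted p = 5e-10). In control siRNA cells its decitabine values stayed between 0.295 and 0.483 FPKM.

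PAGE1 was the highest member, at 2.58, 2.23 and 6.75 FPKM with siCHD4 and 63.7, 55.7 and 69.7 FPKM with decitabine added (log2 change 3.83, limma adjusted p = 4.42e-07). PRAME, a leucine-rich antigen studied as an immunotherapy target, went from 0.748, 0.453 and 0.515 FPKM to 20.8, 19.2 and 20.7 FPKM. In PRAME the control siRNA plus decitabine libraries, at 20.0, 9.97 and 10.9 FPKM, came close to these or overlapped them. PNMA5, which derives from a retrotransposon gag gene, was at 0.0474, 0 and 0.0378 FPKM and rose to 13.4, 14.0 and 12.8 FPKM. PAGE2B rose by 4.42, SSX3 by 4.03, MAGEA1 by 3.42 and SSX1 by 2.92 on the log2 scale (largest limma adjusted p of these, 4.75e-08).

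Genes that act in the germline itself rose as well. CTCFL, the testis paralogue of the insulator protein CTCF, was listed at 0, 0 and 0.0327 FPKM and reached 6.70, 5.15 and 6.84 FPKM. PIWIL2 and MAEL, both of the piRNA pathway that silences transposons, rose by 2.04 and 2.33 on the log2 scale (limma adjusted p = 7.11e-09 and 4.42e-07). The germ cell RNA-binding gene DAZL and the germ cell helicase gene DDX4 rose to means of 1.42 and 0.875 FPKM from at most 0.0506 FPKM in any siCHD4 library. SYCP3, of the synaptonemal complex that pairs meiotic chromosomes, rose by 2.49, and the meiotic cohesin STAG3 by 0.93. All of these except STAG3 had siCHD4 means under 0.5 FPKM.

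TEX19, a germline gene that guards against retrotransposons, moved against the group. It stood at 49.9, 68.4 and 54.6 FPKM with siCHD4 alone and fell to 16.2, 15.5 and 16.4 FPKM with decitabine added, a log2 change of -1.77 (SE 0.21, limma adjusted p = 3.19e-05). Control siRNA libraries held at most 0.498 FPKM without and 1.54 FPKM with decitabine, so TEX19 remained well above control in both CHD4-depleted groups. The only other member called lower, SYCE2 of the synaptonemal complex, had a log2 change of -0.94 (limma adjusted p = 0.0347). That call was lost without siCHD4 replicate 0 or 1 or siCHD4 plus decitabine replicate 0 or 1 (adjusted p of 0.0764 to 0.152).

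Outside the germline and histone genes, large increases were seen in genes of varied function. THBS1, a secreted matrix glycoprotein often methylated in tumours, was at 0.753, 0.544 and 0.806 FPKM with siCHD4 and at 38.3, 38.0 and 33.8 FPKM with decitabine added (log2 change 4.47, SE 0.08, limma adjusted p = 3.09e-15). With control siRNA it went from 0.597 ± 0.0527 to 35.6 ± 1.17 FPKM (SD, n = 3), and the decitabine libraries of both backgrounds overlapped. KRT31, a hair keratin, was at 0.646, 0.783 and 0 FPKM and reached 30.6, 33.0 and 27.6 FPKM, above the 12.2, 8.29 and 7.39 FPKM of control siRNA plus decitabine. SAP25, a subunit of the SIN3 corepressor complex, rose by 4.17, the testis-type tubulin gene TUBA3E by 3.87, the LIM protein gene CRIP1 by 3.81 and the germ cell gene ACRC by 4.29 on the log2 scale. Of these 4 genes, TUBA3E was higher with siCHD4 plus decitabine than with control siRNA plus decitabine in every library, at 12.7 to 17.2 FPKM against 2.95 to 7.01 FPKM.

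Among 35 tested genes of the mesenchymal transition list, which holds matrix and contractile genes, 12 were higher and 1 lower, with a median change of 0.44. THBS1 is on it. Over all tested genes, 7.66% were higher and 6.28% lower. Without siCHD4 replicate 2 the count of higher members was 19, in a fit that called 11.9% of all tested genes higher. The median change of the 35 was 0.21 in the libraries of low small RNA level, with 1 siCHD4 library. FSTL1, a secreted glycoprotein, rose from 0.285, 0.259 and 0.514 FPKM to 9.21, 8.41 and 9.41 FPKM (log2 change 2.89). S100A4, a calcium-binding protein of motile cells, rose from a mean of 416 to 808 FPKM, and TPM2, a tropomyosin, from 10.6 to 31.0 FPKM. Fibroblast markers summed to 0.414 to 3.80 FPKM with siCHD4 and to 6.79 to 7.70 FPKM with decitabine added, and 4 of the 10 markers were listed at 0 in all 6 libraries. Their part in the result was not tested.

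Some genes typical of blood or nerve cells were called higher. Of 19 tested blood-cell genes 8 were higher and 1 lower (median change 0.39), and of 17 tested neuronal genes 7 were higher and 2 lower (median 0.37). Over all tested genes the shares were 7.66% and 6.28%. Median changes in the libraries of low small RNA level, with 1 siCHD4 library, were 0.36 for blood-cell and 0.1 for neuronal genes. HCLS1, an actin regulator of blood cells, went from 0, 0 and 0.120 FPKM to 7.00, 6.38 and 7.04 FPKM (log2 change 2.91, limma adjusted p = 4.1e-09). PTPRC, the leukocyte antigen CD45, reached only 0.630 to 0.737 FPKM, and 3 of 12 blood-cell markers were at 0 in all 6 libraries. The summed level of those markers was 1.70 to 3.44 FPKM with siCHD4 and 4.75 to 6.24 FPKM with decitabine added. UCHL1, a neuronal deubiquitinase silenced by methylation in many tumours, was listed at 0 with siCHD4 and reached 3.70, 3.32 and 4.56 FPKM.

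Of 25 tested imprinted genes, which are expressed from the allele of a given parent, 5 were higher and 1 lower. Over all tested genes the shares were 7.66% and 6.28%. H19, a maternally expressed long noncoding RNA, rose from 4.92, 4.79 and 6.06 FPKM to 70.5, 65.6 and 64.6 FPKM (log2 change 3.44, SE 0.13, limma adjusted p = 1.04e-10). In control siRNA cells it reached 75.8 ± 2.81 FPKM (SD, n = 3) with decitabine. CDKN1C, which encodes the cell cycle inhibitor p57, rose from 2.31, 3.10 and 7.75 FPKM to 17.3, 18.2 and 17.9 FPKM. Its siCHD4 replicate 2 stood above the other siCHD4 libraries and below all decitabine libraries. Of 20 tested genes often hypermethylated in colorectal cancer 4 were higher and none lower by limma. Without siCHD4 replicate 2, 7 were higher, in a fit that called 11.9% of all tested genes higher. With no filter on level 14 of the 63 with any value above 0 were higher and none lower, against 7.29% and 4.0% of all genes.

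Of 48 tested targets of p53, 19 were higher and none lower with CHD4 siRNA (median change 0.33), and 28 were higher and 1 lower with control siRNA (median 0.48). Over all tested genes, 7.66% were higher and 6.28% lower with CHD4 siRNA, and 9.6% and 8.63% with control siRNA. In the libraries of low small RNA level, with 1 siCHD4 library, the median change of these targets with CHD4 siRNA was 0.4. CDKN1A, the cell cycle inhibitor p21, stood at 54.7, 70.9 and 40.9 FPKM with siCHD4 and at 126, 116 and 112 FPKM with decitabine added (log2 change 1.10, SE 0.22, limma adjusted p = 0.00313). Control siRNA libraries held 22.8 ± 9.66 FPKM (SD, n = 3) and, with decitabine, 85.8 ± 15.3 FPKM (SD, n = 3). MDM2, the ubiquitin ligase that limits p53, rose from 24.4, 23.6 and 25.8 FPKM to 51.6, 56.1 and 54.2 FPKM. SPATA18 of mitochondrial quality control, the death receptor FAS and the stress cytokine GDF15 rose by 0.99, 0.54 and 1.24 on the log2 scale.

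In the Wnt and intestinal stem cell list, 7 of 33 tested genes were higher and 1 lower (median 0.17), against 7.66% and 6.28% of all tested genes. Without siCHD4 replicate 2 the count of higher members was 10, in a fit that called 11.9% of all tested genes higher. The median change of the 33 was 0.02 in the libraries of low small RNA level, with 1 siCHD4 library. NKD1, a feedback inhibitor of Wnt signalling, was at 2.50, 2.05 and 6.01 FPKM and rose to 12.3, 13.6 and 10.4 FPKM. Its siCHD4 replicate 2 was again the highest of the siCHD4 group. WNT11, a Wnt ligand, and TNFRSF19, a Wnt target receptor, rose by 1.51 and 1.00. Of 50 tested interferon-stimulated and RNA sensing genes, 5 were higher and 4 lower, near the 7.66% and 6.28% over all tested genes, and with any library of the comparison left out 1 to 3 were lower. Those lower were the RNA sensor gene OAS1 (log2 change -0.80), the ISG15 protease gene USP18 (-0.42), the interferon gamma receptor gene IFNGR2 (-0.31) and the ISG15-conjugating enzyme gene UBE2L6 (-0.66). The 5 higher included IFI27, at 0.628, 0.659 and 1.50 FPKM and then 12.4, 11.8 and 11.6 FPKM, the antiviral membrane protein gene IFITM1, which rose by 2.30, and the ubiquitin-like modifier ISG15, which rose by 1.05. Among 25 tested HLA and antigen presentation genes, 1 was higher and 3 lower. Without siCHD4 replicate 2 there were 6 lower, in a fit that called 14.6% of all tested genes lower. CD74, the invariant chain of class II, rose to a mean of 1.49 FPKM, and B2M, the light chain of class I, fell from 277 ± 10.3 to 202 ± 16.9 FPKM (SD, n = 3).

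**Figure D3:**
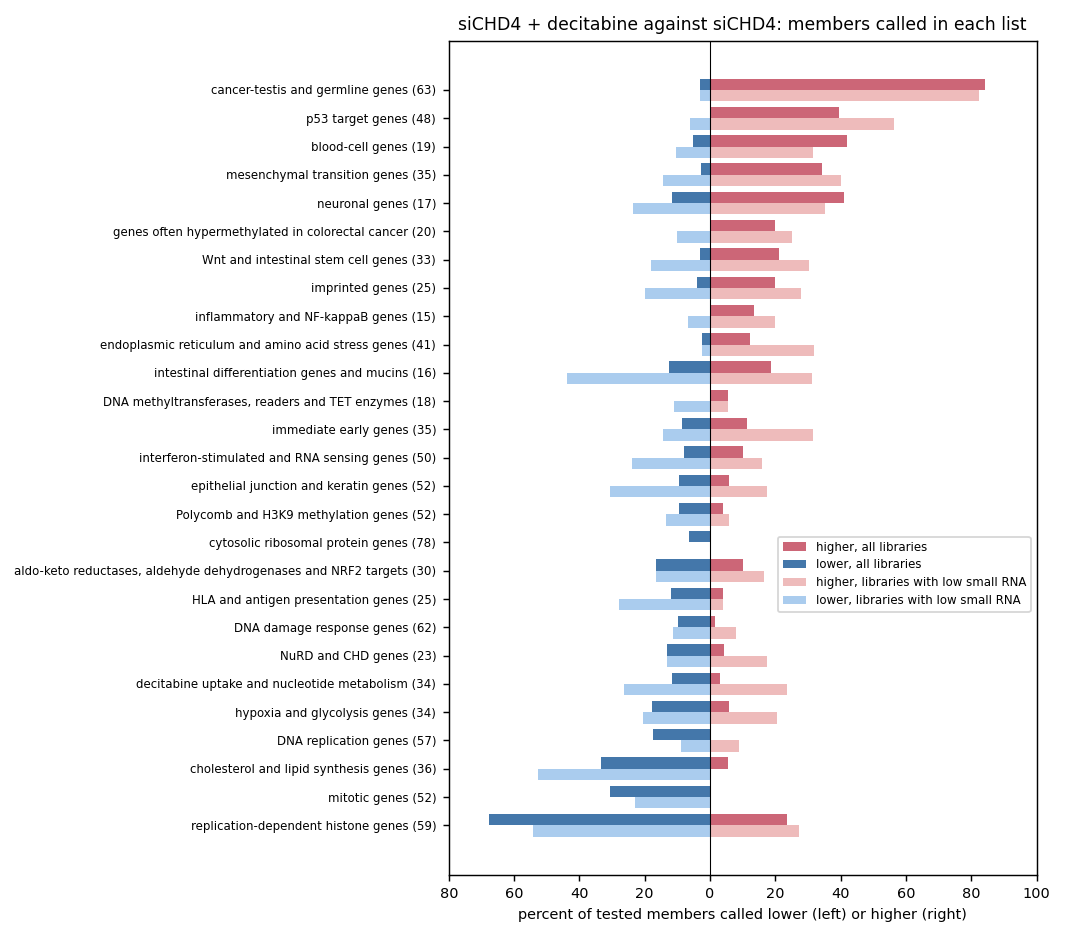
For each gene list with at least 15 tested members (number tested in brackets), bars give the percent of tested members called higher (right) or lower (left) with siCHD4 plus decitabine than with siCHD4. Dark bars use all libraries and pale bars only those of low small RNA level, which leave 1 siCHD4 library. Cancer-testis and germline genes extend farthest to the right and replication-dependent histone genes farthest to the left in both.

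Replication-dependent histone genes, which supply histones during DNA synthesis, split by their level. Of 59 tested, 14 were higher and 40 lower with decitabine added, against 7.66% and 6.28% of all tested genes. The groups of libraries did not overlap for 53 of the 59, against 28.1% of all tested genes. The 14 that rose had a median of 0.274 FPKM with siCHD4 and 25.4 FPKM with decitabine, and the same genes had medians of 0.2 and 29.2 FPKM without and with decitabine in control siRNA cells. HIST1H1A, a linker histone gene, was at 0.361, 0.253 and 0 FPKM and reached 47.9, 38.9 and 50.7 FPKM (log2 change 5.28, SE 0.20, limma adjusted p = 8.46e-11), the largest increase of any gene called with separated libraries. HIST1H1B rose by 5.05 and HIST1H4I by 4.31. Histone genes have near-identical copies, so the split of fragments between them is uncertain.

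The 40 histone genes that fell were abundant. Their median level was 1360, 1820 and 856 FPKM in siCHD4 replicates 0, 1 and 2 and 586, 544 and 596 FPKM with decitabine added, with a median change of -1.15, against -0.28 for the same genes in control siRNA cells. HIST1H1C, another linker histone gene, fell from 4003, 5531 and 2487 FPKM to 1788, 1590 and 1744 FPKM (log2 change -1.16, SE 0.23, limma adjusted p = 0.00287). The siCHD4 libraries with the highest histone levels, replicates 0 and 1, were those with the high small RNA level. In the libraries of low small RNA level alone, with 1 siCHD4 library, the 59 had a median change of -0.43 and HIST1H1C a log2 change of -0.54. Counts of lower members without a given library ran from 29, without siCHD4 plus decitabine replicate 1, to 43, without siCHD4 replicate 2.

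**Figure D4:**
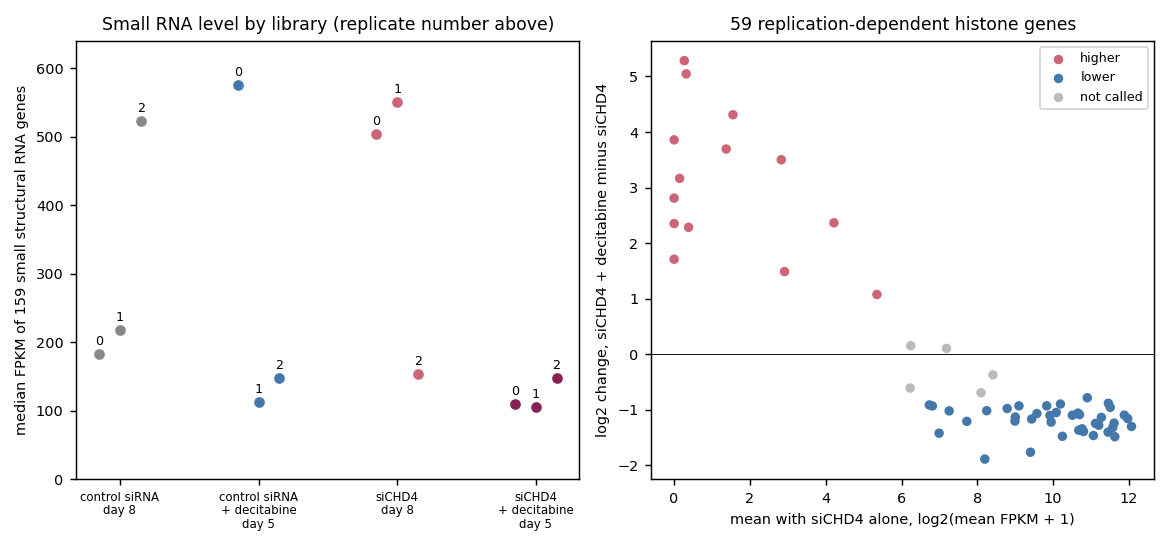
Left, the median FPKM of 159 small structural RNA genes in each library of 4 groups, with the replicate number above each point. Right, the log2 change of each of 59 replication-dependent histone genes against its mean level with siCHD4 alone on a log2 scale, in red where called higher, blue where called lower and grey where not called. siCHD4 replicates 0 and 1 lie at 504 and 550 FPKM on the left, and on the right the genes that rose lie at low and those that fell at high siCHD4 levels.

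The small RNA genes themselves gave 32 members lower and none higher of 159 tested by limma (median -1.32), where 6.28% of all tested genes were lower. With control siRNA 3 of these small RNA genes were lower (median -0.05), where 8.63% of all tested genes were lower. All 15 of the largest called decreases were of this class, among them SCARNA10, a Cajal body RNA, at 3534, 4279 and 2243 FPKM with siCHD4 and 186, 907 and 1383 FPKM with decitabine added. The count of lower members was 56 without siCHD4 replicate 2, where 14.6% of all tested genes were lower. It was 12 without siCHD4 replicate 0, 9 without siCHD4 replicate 1, and 9 and 14 without siCHD4 plus decitabine replicates 0 and 1. In the libraries of low small RNA level, with 1 siCHD4 library, the median change of the small RNA genes was -0.52. The labels name Trizol and RNeasy as extraction methods, and which of them each library had is not given in the sources used here.

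Outside the small RNA and histone genes, decreases in the mitotic and DNA replication lists were modest. Of 52 tested mitotic genes 16 were lower and none higher by limma (median -0.21), against 4 lower and 3 higher with control siRNA (median -0.06). Over all tested genes, 6.28% were lower and 7.66% higher with CHD4 siRNA, and 8.63% and 9.6% with control siRNA. CDC20, an activator of the anaphase-promoting complex, fell from 124, 129 and 79.8 FPKM to 69.5, 68.9 and 62.4 FPKM (log2 change -0.69, SE 0.13, limma adjusted p = 0.00268). It fell by 0.25 in the libraries of low small RNA level, where 79.8 FPKM is the only siCHD4 value. The median change of the 52 mitotic genes in those libraries was -0.24. AURKB, a kinase of chromosome segregation, fell by 0.54 on the log2 scale, and the mitotic cyclin gene CCNB1 fell by 0.55. Lower mitotic members numbered 23 without siCHD4 replicate 2, 10 without siCHD4 replicate 0 or 1, and 9 without siCHD4 plus decitabine replicate 1. The fit without siCHD4 replicate 2 called 14.6% of all tested genes lower. Of 57 tested DNA replication genes 10 were lower and none higher by limma (median -0.2). With control siRNA 15 of them were lower and 1 higher (median -0.24). With CHD4 siRNA the count of lower members was 36 without siCHD4 replicate 2 and 4 without siCHD4 replicate 1. It was 3 without siCHD4 replicate 0 or siCHD4 plus decitabine replicate 0 or 1. Over all tested genes, 805 were lower with all libraries, 510 without siCHD4 replicate 0 and 514 without siCHD4 replicate 1. Without siCHD4 plus decitabine replicates 0 and 1, 394 and 383 of all tested genes were lower. In the libraries of low small RNA level, with 1 siCHD4 library, the median change of the replication genes was 0.05.

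Of 36 tested sterol and lipid synthesis genes, 12 were lower and 2 higher with CHD4 siRNA (median -0.26), and 17 were lower and 2 higher with control siRNA (median -0.37). Over all tested genes, 6.28% were lower and 7.66% higher with CHD4 siRNA, and 8.63% and 9.6% with control siRNA. In the libraries of low small RNA level, with 1 siCHD4 library, the median change of the 36 was -0.31. Lower members numbered 7 without siCHD4 plus decitabine replicate 0. INSIG1, a sterol-sensing protein of the endoplasmic reticulum, fell from 17.1, 16.4 and 27.1 FPKM to 7.64, 8.49 and 9.13 FPKM (log2 change -1.14, SE 0.14, limma adjusted p = 3.68e-05). SQLE, which makes squalene epoxide, fell from 24.8, 24.9 and 31.2 FPKM to 15.9, 16.5 and 17.7 FPKM. DHCR7, an enzyme at the end of cholesterol synthesis, fell by 0.50.

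TEX19 was the largest decrease outside the small RNA and histone genes. ACSL5, an enzyme that activates fatty acids, was at 18.9, 19.2 and 17.6 FPKM and then 5.68, 6.17 and 6.95 FPKM (log2 change -1.43, limma adjusted p = 0.00277). AKR1C3, an aldo-keto reductase that acts on steroids and prostaglandins, fell from 14.8, 14.9 and 19.4 FPKM to 6.76, 7.71 and 7.68 FPKM, against means of 2.29 FPKM with control siRNA and 2.16 FPKM with decitabine added to it. In the plot of CHD4 and 5 other genes, TEX19, ACSL5 and AKR1C3 were higher in every siCHD4 library than in any library of the other 3 groups. On the log2 scale the troponin gene TNNT1 had a change of -1.27, the carbonic anhydrase gene CA2 of -1.08, the small heat shock protein gene HSPB1 of -1.01 and the Polycomb cofactor gene PHF19 of -1.01. CHD4 transcript was higher in the same decitabine libraries, and its part in these decreases was not tested.

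**Figure D5:**
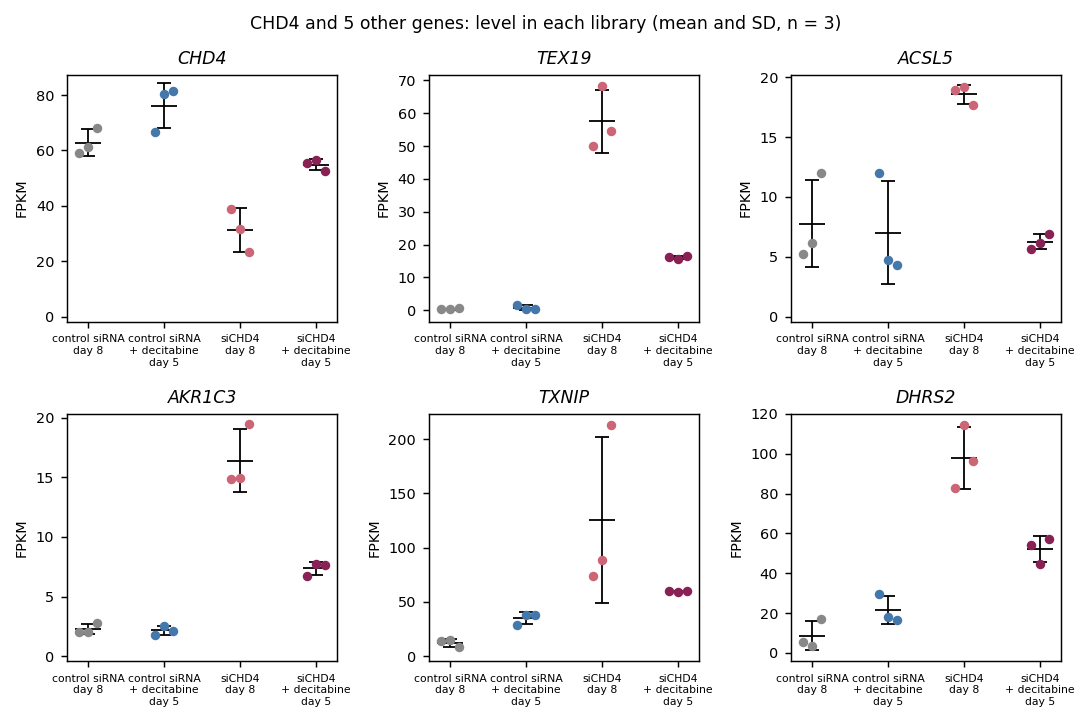
Points are single libraries in FPKM for CHD4 and 5 genes in 4 groups, with the mean as a horizontal line and the SD as error bars (n = 3 a group). CHD4 is lowest with siCHD4 alone, while TEX19, ACSL5, AKR1C3, TXNIP and DHRS2 have their highest mean there and lower values with decitabine added.

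The change was tested against the change in control siRNA cells for each gene, and 99 genes had a more positive change with CHD4 siRNA (0.773%) and 49 a more negative one (0.383%). Cancer-testis and germline genes gave 25 of the 99, out of 63 tested, and 2 of the 49. Leaving out any of the 12 libraries gave 19 to 32 of them, with 32 without control siRNA plus decitabine replicate 0, the library with the fewest fragments. Of the 53 members that rose, 43 were higher in all 3 siCHD4 plus decitabine libraries than in all 3 control siRNA plus decitabine libraries, and 35 also rose with control siRNA. The 53 had a median level of 0.942 FPKM with control siRNA plus decitabine against the 3.28 FPKM given above. They were picked for being high with siCHD4 plus decitabine, which favours that group. The 43 and these medians are therefore no separate test, and the share over all tested genes was not counted for this pair of groups.

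The largest positive difference was that of TKTL1, 2.88 (SE 0.31, limma adjusted p = 0.000158). HCLS1 and VCX followed with 2.15 each, MAGEB2 and MAGEA4 with 2.14, PAGE5 with 2.03 and MAGEA11 with 1.92. VCX, a testis gene of the X chromosome, was listed at 0 in all siCHD4 and control siRNA libraries, reached 3.27, 3.67 and 5.10 FPKM with siCHD4 plus decitabine and only 0, 0 and 0.379 FPKM with control siRNA plus decitabine. MAGEB2 showed the same order, at 5.99, 4.89 and 6.28 FPKM against 1.90, 0 and 0.205 FPKM. S100A7, the epidermal protein psoriasin, was at 3.40, 2.53 and 3.70 FPKM against 0, 0.526 and 0 FPKM (difference 1.86). Differences also passed the test for SSX3 (1.70), MAGEA1 (1.67), TUBA3E (1.59), KRT31 (1.46) and PNMA5 (1.10). The call for PNMA5 was lost without control siRNA replicate 0 or 1 or siCHD4 plus decitabine replicate 0 or 1 (limma adjusted p of 0.052 to 0.0594). For PRAME, THBS1, H19 and MDM2 the differences of -0.62 to 0.36 did not pass the test.

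Negative differences were led by histone genes. HIST1H2BG was at 15.2, 25.4 and 12.1 FPKM with siCHD4 and 98.1, 76.8 and 98.7 FPKM with decitabine added, against 0, 0 and 0.456 FPKM and 288, 75.9 and 77.9 FPKM with control siRNA, a difference of -4.37 (SE 0.54, limma adjusted p = 0.000697). Its level without decitabine was higher with siCHD4 than with control siRNA in every library, and its levels with decitabine overlapped between the backgrounds. HIST1H1T, HIST1H2AE, HIST1H2BI and HIST1H2BM had differences of -3.62, -2.87, -2.72 and -2.26. Of the 59 tested histone genes on the list 5 had a called negative difference and 1 a positive one, against 0.383% and 0.773% of all tested genes. Without siCHD4 replicate 2 the negative count was 36, where 142 of all 12809 tested genes had a negative difference. It was 4 to 7 without any other of the 12 libraries.

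TXNIP, an inhibitor of thioredoxin and glucose uptake, stood at 73.8, 89.0 and 213 FPKM with siCHD4 and at 60.0, 59.0 and 59.8 FPKM with decitabine added (log2 change -0.90, limma adjusted p = 0.0508). In control siRNA cells it went from 12.3 ± 3.66 to 35.1 ± 5.37 FPKM (SD, n = 3), a rise of 1.48, and the difference between the changes was -2.38. DHRS2, a mitochondrial reductase, was at 83.0, 114 and 96.2 FPKM and then 54.4, 44.9 and 57.2 FPKM (log2 change -0.89, limma adjusted p = 0.107), while control siRNA cells rose from 8.69 ± 7.11 to 21.3 ± 7.03 FPKM (SD, n = 3). The difference for DHRS2 was -2.30 (limma adjusted p = 0.0315), for TEX19 -2.02 and for AKR1C3 -0.99. The call for AKR1C3 was lost without control siRNA replicate 0 or 1 or siCHD4 plus decitabine replicate 0 (adjusted p of 0.0564 to 0.0589). That for DHRS2 was lost without control siRNA replicate 0 or 1, control siRNA plus decitabine replicate 0, siCHD4 replicate 1 or any siCHD4 plus decitabine library (adjusted p of 0.0594 to 0.0974).

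The siCHD4 plus siDNMT1 group, in which siDNMT1 came before CHD4 siRNA on its own schedule, is set beside decitabine. Likeness was not tested, because both are read against the same siCHD4 libraries. With siCHD4 plus siDNMT1, 2129 genes were higher (16.6%) and 2483 lower (19.4%) than with siCHD4 alone. Of the 63 tested cancer-testis and germline genes 55 were higher and 2 lower (median 2.09), and the 53 that rose with decitabine had a median level of 5.25 FPKM. TKTL1 averaged 30.3 FPKM, MAGEA4 10.6 FPKM, VCX 14.7 FPKM and PRAME 43.9 FPKM with siDNMT1 added, and 15.8, 5.02, 4.01 and 20.2 FPKM with decitabine added. PAGE5 averaged 17.6 FPKM with siDNMT1 and 23.3 FPKM with decitabine. H19 reached 16.9 FPKM with siDNMT1 and 66.9 FPKM with decitabine, and MDM2 29.3 and 54.0 FPKM. TEX19 averaged 57.1 FPKM with siDNMT1 added, a log2 change of -0.00 from siCHD4 alone, and 16.0 FPKM with decitabine added. CHD4 itself averaged 28.4 FPKM with siDNMT1 added.

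The counts of the chromatin, damage and drug uptake lists stand beside 7.66% higher and 6.28% lower over all tested genes. DNA methyltransferase, reader and TET genes had 1 member higher and none lower of 18 tested by limma, and NuRD and CHD genes had 1 higher, which is CHD4 itself, and 3 lower of 23. Polycomb and H3K9 methylation genes had 2 higher and 5 lower of 52, DNA damage response genes 1 higher and 6 lower of 62, and decitabine uptake and nucleotide metabolism genes 1 higher and 4 lower of 34. Leaving out a library of the comparison moved the count of higher members, from 0 to 3 in the DNA methyltransferase list, 0 to 5 in the Polycomb list and 0 to 2 in the DNA damage list, each highest without siCHD4 replicate 2, and from 0 to 1 in the uptake list. In the NuRD list it was 2 without siCHD4 replicate 1. In these 5 lists it also moved the count of lower members, which was largest without siCHD4 replicate 2 (1, 5, 6, 14 and 17) and down to 0, 1, 1, 2 and 3 without another library of the comparison. The fit without siCHD4 replicate 2 called 11.9% of all tested genes higher and 14.6% lower. Cytosolic ribosomal protein genes had 5 lower of 78 tested (median -0.26). That list depended on the libraries and the scaling: 59 were lower without siCHD4 replicate 2, and 37 were higher after quantile normalization. In the libraries of low small RNA level, with 1 siCHD4 library, its median change was 0.03. The colon epithelial markers EPCAM (243 ± 17.0 and 220 ± 21.2 FPKM, SD, n = 3) and CDX2 (62.1 ± 12.8 and 56.5 ± 1.50 FPKM, SD, n = 3) were not called. All 14 such markers together summed to 1213 to 1378 FPKM with siCHD4 and 1459 to 1516 FPKM with decitabine added. The median change of the 11 tested was 0.08.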

How the data were processed

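RNA-seq was done on 18 libraries of SW48 cells, 3 in each of 6 groups, from stranded, ribosomal RNA-depleted libraries of 1 µg total RNA. The deposited values are FPKM per gene; the submitters' processing notes name TopHat2 2.0.9, Cuffdiff 2.1.1 and the hg19 build. The table holds 23599 entries, of which 28 (0.119%) carry dates for names and were left out. Total fragment counts are not in the table; the relative FPKM worth of 1 fragment was read from the ratios of low values. FPKM are not counts, so log2(FPKM + 1) was tested with limma 3.58.1 in R 4.3.3 (1 mean per group, 18 libraries, 12 residual degrees of freedom, trend in the mean, Benjamini-Hochberg adjustment over 12809 genes). The genes named are the 15 largest changes in each direction among called genes with separated libraries, the 8 largest called differences each way, the 8 highest genes risen from under 0.5 FPKM, and the 5 smallest p-values in each list; further names, the 12 largest decreases outside small RNA and histone genes among them, were chosen after their values were seen. Some genes under this rule are not reported here. The members and gene lists were chosen with earlier results of these data known. The low small RNA libraries are those whose median over 159 small structural RNA genes was under 300 FPKM, a limit set after the data were seen. The scripts were tested on simulated data. Replicate numbers were not taken to pair libraries, since the correlations of same-numbered deviations ran from -0.31 to 0.126. Promoter sequences are from the RefSeq table and were matched exactly to GRCh37.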

Additional observations from a re-analysis of the deposited data

Results flagged for a closer look

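The following differences are those of the named genes for which the change from siCHD4 to siCHD4 plus decitabine differed from the change from control siRNA to control siRNA plus decitabine (limma adjusted p below 0.05), on the log2(FPKM + 1) scale. More positive with CHD4 siRNA were TKTL1 (2.88), VCX (2.15), HCLS1 (2.15), MAGEA4 (2.14), MAGEB2 (2.14), PAGE5 (2.03), MAGEA11 (1.92), S100A7 (1.86), SSX3 (1.70), MAGEA1 (1.67), TUBA3E (1.59), KRT31 (1.46) and PNMA5 (1.10). More negative were the histone genes HIST1H2BG (-4.37), HIST1H1T (-3.62), HIST1H2AE (-2.87), HIST1H2BI (-2.72) and HIST1H2BM (-2.26). TXNIP (-2.38), DHRS2 (-2.30), TEX19 (-2.02) and AKR1C3 (-0.99) were also more negative.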

How the results depend on the processing

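The counts of called genes moved with the samples and the model. Median ratio scaling could move them little, since its factors were 1.006 to 1.023 over the 18 libraries. Quantile normalization gave 939 higher and 997 lower genes with siCHD4, and 945 and 920 with control siRNA. It gave 86 positive and 50 negative differences between the changes. With libraries left out in turn, higher genes numbered 671 to 1528 and lower genes 383 to 1868 in CHD4-depleted cells, 762 to 1169 and 551 to 1172 with control siRNA, and 54 to 161 positive and 15 to 142 negative differences between the changes. Genes under 0.5 FPKM with siCHD4 that were higher numbered 307 to 371. The change of DNMT1 ran from 0.12 to 0.36. In the same order of higher and lower with siCHD4, higher and lower with control siRNA, and positive and negative differences, library weights gave 3512, 3446, 2644, 2977, 1395 and 1018. Fitting only the groups compared gave 604, 233, 552, 377, 34 and 8. A filter at 5 FPKM gave 559 higher with siCHD4, 804 higher with control siRNA, 46 positive differences and 75 genes risen from under 0.5 FPKM. No filter gave 158 positive differences and 841 genes risen from under 0.5 FPKM, and a pseudocount of 0.1 gave 60 positive differences. The replicate number as a block gave 888 higher and 673 lower genes with siCHD4, and 71 positive and 26 negative differences. Alternatives chosen after seeing the data used only libraries of low small RNA level, which leave 1 siCHD4 library assumed to vary like the other groups, or their class as a term. The first gave 2063 higher and 1590 lower genes with siCHD4, 1939 lower with control siRNA, 1586 positive and 1017 negative differences, and a DNMT1 change of 0.47 that passed the test. The second gave 1887 lower genes with control siRNA and 83 negative differences. The direction reversed in quantile normalization for GSTP1 (0.20), RPLP0 (0.10), RPS3A (0.11), RPS6 (0.32) and RPSA (0.32), and in the low small RNA libraries for ERV3-1 (-0.42). The cause was not tested in any of these. Over the changes and differences of single genes, counts of called genes left aside, 3249 values kept their direction and side of the threshold, 332 lost and 78 gained a call. Depth limits the lowest genes most, above all in control siRNA plus decitabine replicate 0.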
